A study of Arabidopsis thaliana with 6 samples.

Results

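HSP15.7 (AT5G37670) and HSP18.1 (AT5G59720) are small heat shock protein genes of Arabidopsis thaliana, and both are rows of the authors' table of genes with more RNA in the mrg1mrg2 mutant than in wild type. They were taken by name from that table, and they are 2 of the 531 higher genes and of the 552 genes listed in all. RNA was measured in aerial parts (leaves and stem) of 12-day-old seedlings of 2 genotypes in the Columbia-0 background: mrg1mrg2, mutated in both MRG1 and MRG2, and the Col-0 wild type. Both were stratified at 4 °C for 3 days. They were grown in soil at 22 °C with 16 h light and 8 h dark per day. Light was 100 µmol m⁻² s⁻¹, and the labels name no heat treatment. Harvest was 8 h after lights on, and independent experiments gave 3 libraries per genotype. Aerial parts mix many cell types, and more cells of a type cannot be told apart from more RNA per cell.

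Small heat shock proteins are chaperones built around an alpha-crystallin domain. They work without ATP, hold partly unfolded proteins in large oligomers, and pass them on to the HSP70 and HSP101 machinery for refolding. In leaves their transcripts are known to be scarce without stress and to rise steeply in heat, when heat stress transcription factors bind heat shock elements, short inverted repeats of GAA, in their promoters. The authors' table describes HSP15.7 as peroxisomal and HSP18.1 as class I, a cytosolic class. MRG1 and MRG2 are related chromodomain proteins that bind methylated histone H3 and work with histone acetyltransferases.

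Both genes have a short, intronless model in RefSeq TAIR10.1. HSP15.7 lies on the plus strand of chromosome 5 at 14968758 to 14969591, with 1 exon of 834 bases, a coding sequence of 414 bases, a 5′ UTR of 277 bases and a 3′ UTR of 143 bases. HSP18.1 lies on the plus strand of chromosome 5 at 24062323 to 24063300, with 1 exon of 978 bases, a coding sequence of 486 bases, a 5′ UTR of 309 bases and a 3′ UTR of 183 bases. RefSeq gives AT5G59720 the symbol HSP18.2; the name in the deposited table is kept here.

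The 250 bases before each annotated start are shown because heat shock elements are the known control sequence of this family. Capitals mark a match to TTCNNGAA or GAANNTTC, the 2-unit forms of the element, each of which reads the same on both strands.
HSP15.7, TAIR10.1 chr5:14968508-14968757, plus strand: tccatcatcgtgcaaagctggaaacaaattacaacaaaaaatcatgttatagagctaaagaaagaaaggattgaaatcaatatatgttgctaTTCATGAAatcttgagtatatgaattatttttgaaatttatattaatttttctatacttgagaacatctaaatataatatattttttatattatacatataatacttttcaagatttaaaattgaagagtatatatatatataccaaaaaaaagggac
HSP18.1, TAIR10.1 chr5:24062073-24062322, plus strand: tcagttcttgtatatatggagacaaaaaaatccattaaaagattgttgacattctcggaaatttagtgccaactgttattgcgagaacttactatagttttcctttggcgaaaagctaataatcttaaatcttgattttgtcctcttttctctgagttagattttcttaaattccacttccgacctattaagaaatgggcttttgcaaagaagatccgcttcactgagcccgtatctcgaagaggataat
HSP15.7 held 1 match in this window and HSP18.1 held none; the gene upstream of HSP18.1, VIP2, ends 240 bases before its start, just inside the window. Among 27443 nuclear protein-coding genes, 16.1% held a 2-unit match in the same window.

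Because the annotated 5′ UTRs were long, the 500 bases before each coding start were searched as well, also for 3-unit forms, in which a 2-unit form is followed, after any 2 bases, by a further GAA or TTC in the alternating order. The 3-unit forms are each other's reverse complement, and each holds both 2-unit forms in overlap. The matched stretches are shown with 3 bases on either side in lower case.
HSP18.1, chr5:24062396-24062408, 3-unit: aacGAAACTTCCTGAAatg
HSP18.1, chr5:24062509-24062516, 2-unit: ctaTTCAAGAAact
HSP18.1, chr5:24062524-24062531, 2-unit: gaaGAACATTCtct
HSP15.7, chr5:14968600-14968607, 2-unit: ctaTTCATGAAatc
In HSP18.1 the 3-unit match began 236 bases before the coding start and the 2-unit matches began 123 and 108 bases before it, all inside the annotated 5′ UTR. In HSP15.7 the match began 435 bases before the coding start, outside the annotated transcript. A 3-unit match occurred in 1.2% of the 27443 genes and a 2-unit match in 33.9%. Of 19 small heat shock protein genes, 4 held a 3-unit and 16 held a 2-unit match. Among the 506 nuclear protein-coding higher genes the shares were 1.78% and 36.4%. A match is a string of letters and not a measured binding site.

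**Figure D1:**
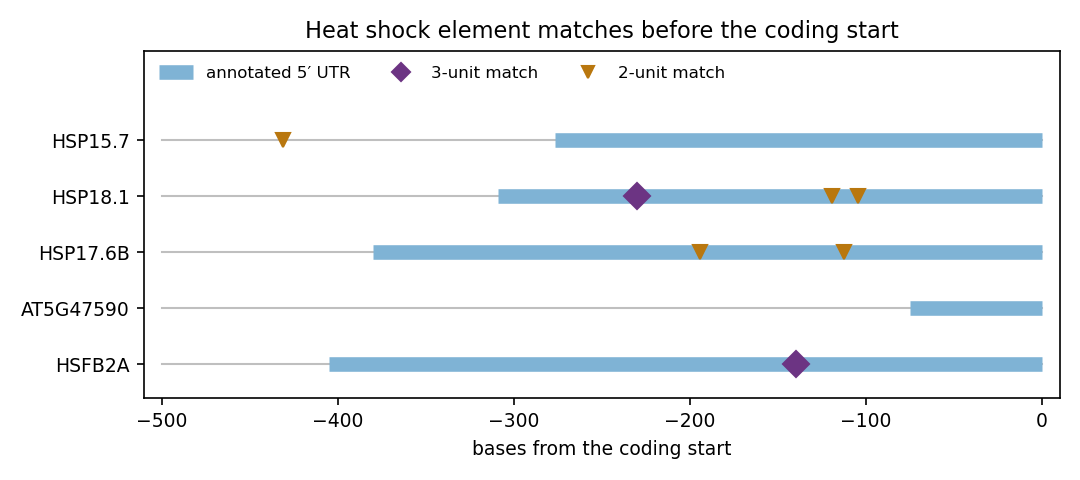
Heat shock element matches in the 500 bases before the coding start of HSP15.7, HSP18.1 and 3 other listed heat shock genes; the horizontal axis is the distance in bases from the coding start, bars are annotated 5′ UTRs, diamonds 3-unit and triangles 2-unit matches. HSP18.1 and HSFB2A hold a 3-unit match, HSP15.7 a 2-unit match upstream of its 5′ UTR, and AT5G47590 none.

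HSP15.7 was higher in every mutant library than in every wild-type library. Its raw counts were 121, 177 and 155 reads in mrg1mrg2 replicates 1, 2 and 3, against 62, 61 and 78 reads in Col-0 replicates 1, 2 and 3. The lowest mutant library was 1.65-fold above the highest Col-0 library after normalisation, so the genotypes did not overlap. Mutant replicate 1 was the lowest of its genotype and Col-0 replicate 3 the highest of its own. Normalised counts, which are raw counts divided by the libraries' size factors, averaged 150 ± 20.6 in mrg1mrg2 and 66.9 ± 8.71 in Col-0 (SD, n = 3 each). The authors' deposited table gives a log2 fold change of 1.17, a 2.25-fold difference, with an adjusted p of 5.41e-05.

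HSP18.1 was also higher in every mutant library, by less. Its raw counts were 94, 103 and 102 reads in mrg1mrg2 replicates 1, 2 and 3, against 58, 59 and 52 reads in Col-0 replicates 1, 2 and 3. The counts within each genotype were close together, and the lowest mutant library lay 1.58-fold above the highest Col-0 library after normalisation. Normalised counts averaged 99.7 ± 4.46 in mrg1mrg2 and 56.4 ± 4.77 in Col-0 (SD, n = 3 each). The authors' deposited table gives a log2 fold change of 0.82, a 1.77-fold difference, with an adjusted p of 0.0151. Raw counts did not overlap for 99.2% of the 531 higher genes, so the lack of overlap does not set these 2 apart, and the authors' test had chosen both for this difference.

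**Figure D2:**
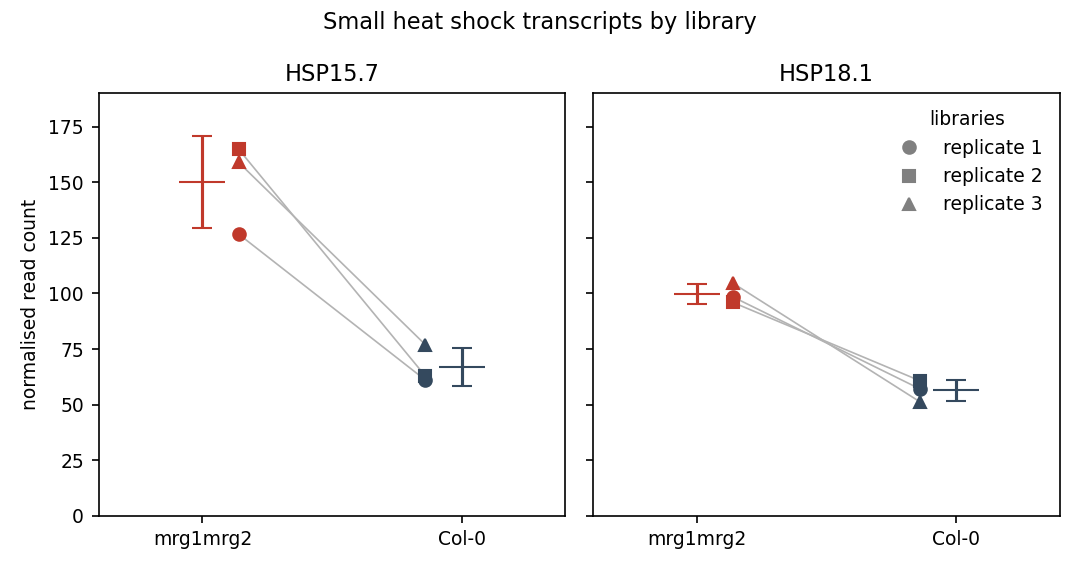
Normalised read counts of HSP15.7 and HSP18.1 in 3 mrg1mrg2 and 3 Col-0 libraries; points are libraries, grey lines join libraries of the same replicate number, and crosses with bars give the mean ± SD. All mutant points lie above all Col-0 points for both genes, and the HSP18.1 points are closer together than those of HSP15.7.

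Within each replicate number both genes were higher in the mutant. For HSP15.7 the mutant level was 2.08-fold, 2.63-fold and 2.07-fold the Col-0 level in replicate pairs 1, 2 and 3. For HSP18.1 it was 1.72-fold, 1.58-fold and 2.04-fold. Pair 2 therefore held the largest difference for HSP15.7 and the smallest for HSP18.1. The mean log2 difference over pairs was 1.16 ± 0.20 for HSP15.7 and 0.82 ± 0.19 for HSP18.1 (SD, n = 3 pairs).

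The counts were small, so their counting error is given here. Summed over 3 libraries, HSP15.7 had 453 reads in mrg1mrg2 and 201 in Col-0, which gives a counting interval of 1.90 to 2.67 for its fold difference. HSP18.1 had 299 reads in mrg1mrg2 and 169 in Col-0, with an interval of 1.46 to 2.15. These Clopper-Pearson 95% intervals cover counting error only. The variance of HSP18.1 was 0.200 times its mean in mrg1mrg2 and 0.404 times in Col-0, below the value of 1 that counting error alone would give on average. The variance of HSP15.7 was 2.81 times its mean in mrg1mrg2 and 1.13 times in Col-0. The median over the 531 higher genes was 3.90 in mrg1mrg2 and 3.14 in Col-0, and 42 of them, HSP18.1 among these, were below 1 in both genotypes.

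Per kilobase of transcript, HSP15.7 was the more abundant of the pair in both genotypes. In normalised counts per kilobase HSP15.7 had 180 ± 24.6 and HSP18.1 had 102 ± 4.56 in mrg1mrg2, and in Col-0 HSP15.7 had 80.2 ± 10.4 and HSP18.1 had 57.6 ± 4.88 (SD, n = 3 each). The lowest HSP15.7 library exceeded the highest HSP18.1 library in both genotypes, at 152 against 107 in mrg1mrg2 and 73.2 against 62.1 in Col-0. The gap per kilobase also rests on the annotated transcript lengths, 834 and 978 bases. In raw counts HSP15.7 and HSP18.1 were close in Col-0 replicates 1 and 2, at 62 against 58 and 61 against 59 reads. In Col-0 replicate 3 they had 78 against 52 reads.

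The genotype differences of HSP15.7 and HSP18.1 were compared through the ratio of their raw counts inside each library, which does not depend on library size. The HSP15.7 to HSP18.1 ratio was 1.29, 1.72 and 1.52 in mrg1mrg2 replicates 1, 2 and 3, against 1.07, 1.03 and 1.5 in Col-0 replicates 1, 2 and 3. The ratio in Col-0 replicate 3 lay among the mutant values, so the genotypes overlapped. Within replicate pairs 1, 2 and 3 the log2 ratio was higher in mrg1mrg2 by 0.27, 0.73 and 0.02. The mean log2 ratio was higher in mrg1mrg2 by 0.34, with a mean of 0.58 ± 0.21 in mrg1mrg2 and 0.24 ± 0.30 in Col-0 (SD, n = 3 each; exact permutation test, two-sided p = 0.2). The smallest p that 3 against 3 libraries allow is 0.1, and 3 pairs allow 0.25, so these tests could not have passed 0.05 and decide nothing about whether the 2 genes differed in response.

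The call for HSP15.7 held in every refit of the counts, whereas that for HSP18.1 did not. In the edgeR quasi-likelihood refit of all listed genes the log2 change was 1.17 for HSP15.7 and 0.82 for HSP18.1. Both passed at the largest p-value the authors listed, 0.00161, as did 70.6% of the 531 higher genes. In DESeq2 HSP15.7 had a log2 change of 1.17 with a standard error of 0.26 and passed. HSP18.1 had 0.82 with a standard error of 0.26 and missed the threshold, at a DESeq2 p of 0.00175. The authors' deposited table gives HSP18.1 the same log2 change with an unadjusted p of 0.000325. The refit took its spread from the listed genes alone, so its miss is not a result of DESeq2 on all genes. In this refit 83.6% of the higher genes passed, and 78% with replicate number as a block; a filter on low counts in edgeR left 69.5%. With any of the 6 libraries left out, HSP15.7 still passed, with log2 changes between 1.09 and 1.28. HSP18.1 missed with each of the 6 left out, at edgeR p-values of 0.00184 to 0.00374, while its log2 change stayed between 0.76 and 0.88. Of all higher genes, 51%, 35.6% and 47.6% passed without mrg1mrg2 replicates 1, 2 and 3, and 73.4%, 44.8% and 46.7% without Col-0 replicates 1, 2 and 3. The size of the HSP18.1 difference therefore moved little. Its side of the threshold changed with the model and with the loss of any library. Fits without a library hold fewer samples, so those misses do not show that each library carried the call.

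**Figure D3:**
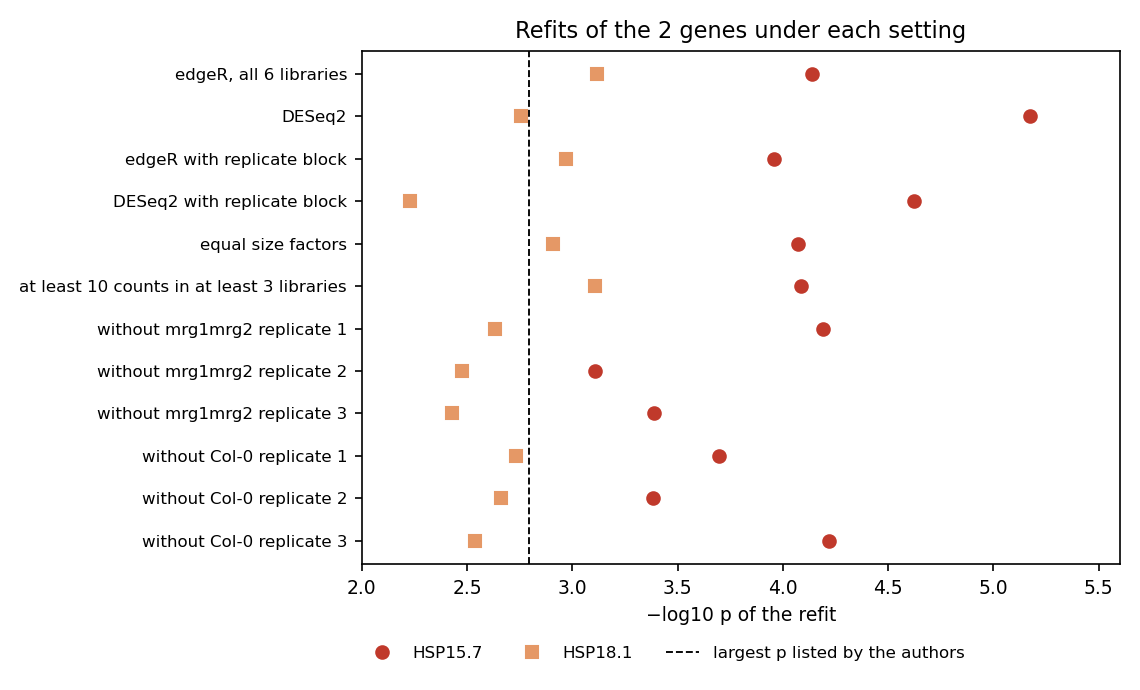
Refits of HSP15.7 and HSP18.1 under 12 settings; the horizontal axis is −log10 of the unadjusted p, circles are HSP15.7, squares HSP18.1, and the dashed line marks the largest p listed by the authors, 0.00161. HSP15.7 lies to the right of the line in every setting, and HSP18.1 lies to the left of it in both DESeq2 refits and whenever a library is left out.

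Among the higher genes the difference of HSP15.7 was near the middle in size and that of HSP18.1 was below it. By log2 change in the authors' deposited table HSP15.7 ranked 222 and HSP18.1 ranked 389 of 531, and the median higher gene was at 1.08. By p they ranked 109 and 372. Their Col-0 levels were below the median higher gene, which had 111 normalised counts in Col-0. Col-0 replicate 1, which was the highest Col-0 library for 255 of the 531 higher genes, was not raised for either gene: its log2 level relative to the mean of Col-0 replicates 2 and 3 was -0.20 for HSP15.7 and 0.03 for HSP18.1, against a median of 0.13 over the higher genes.

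**Figure D4:**
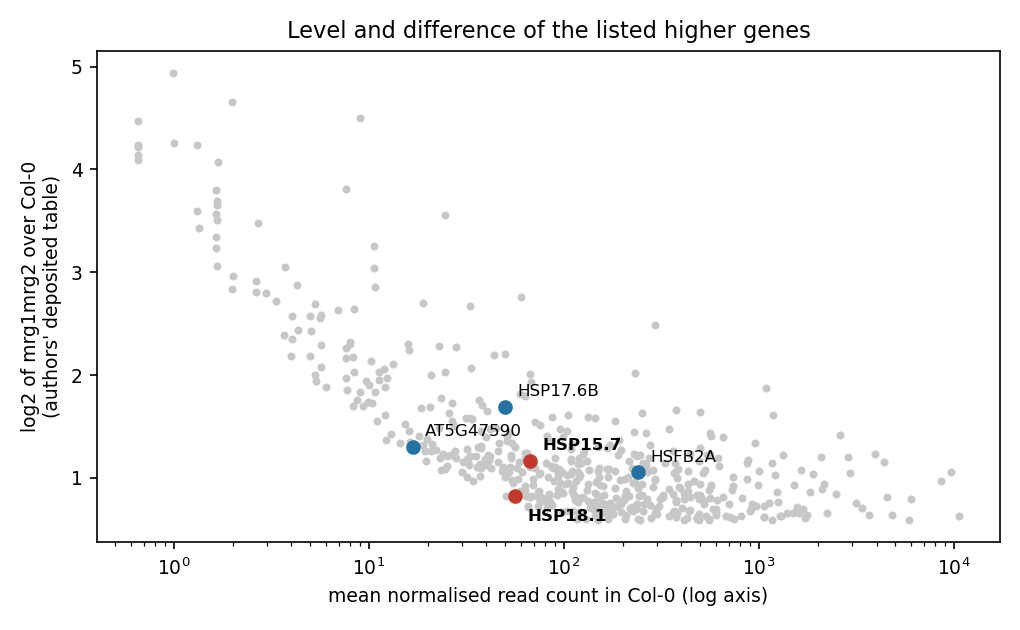
Mean normalised read count in Col-0 (log axis) against the log2 of mrg1mrg2 over Col-0 in the authors' deposited table, for the listed higher genes with reads in Col-0; red points are HSP15.7 and HSP18.1, blue points are other listed heat shock genes. HSP15.7 lies at 1.17, above the median of 1.08, and HSP18.1 below it at 0.82.

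Other genes of the heat response were listed as well. A search of names and descriptions found 5 listed heat shock genes, all higher: the pair above, HSP17.6B, AT5G47590 and HSFB2A. Of 19 small heat shock protein genes 3 were higher, 0 lower and 16 in neither table; of 21 heat stress transcription factor genes 1 was higher and 20 were in neither. None of 17 large heat shock chaperone genes, which include HSP101, HSP70 and HSP90 genes, and none of 9 other heat response genes was in either table. For background, 2.31% of the 22995 genes inferred to have been tested were listed as higher; since the pair was chosen from this table, nothing is read from these counts. A gene in neither table has no value here, and it is not shown to be unchanged.

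HSP17.6B (AT2G29500, chromosome 2, minus strand, 12633065 to 12634120), a second class I gene in the authors' description, showed a larger difference than either. Its raw counts were 124, 184 and 179 reads in mrg1mrg2, against 46, 47 and 57 reads in Col-0. The authors' deposited table gives a log2 change of 1.69, a 3.24-fold difference, with an adjusted p of 4.71e-09. Like HSP15.7 and HSFB2A, it was lowest in replicate 1 of the mutant and highest in replicate 3 of Col-0. The zinc finger gene ZAT9 and the genes WRKY36 and NAC003, which are not heat shock genes, had this order too. How many of the higher genes had it was not counted. Before its coding start HSP17.6B held the 2-unit matches shown here, on the minus strand.
HSP17.6B, chr2:12633931-12633938, 2-unit: ctaGAATTTTCtgg
HSP17.6B, chr2:12633849-12633856, 2-unit: cgaGAAATTTCggt
They began 198 and 116 bases before its coding start, inside the annotated 5′ UTR.

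AT5G47590, described in the authors' table as a member of the HSP20/alpha crystallin family, was the least abundant. It had 48, 36 and 39 reads in mrg1mrg2, against 16, 21 and 13 reads in Col-0, with a 2.47-fold difference and an adjusted p of 0.0443 in the authors' deposited table. It was found by its description, after its values were seen. In edgeR it passed on all libraries and missed with replicate number as a block, where 73.3% of the higher genes passed, while its log2 change was 1.295 without the block and 1.293 with it. It also missed without replicate 1 or replicate 3 of mrg1mrg2, at log2 changes of 1.13 and 1.31, and without replicate 1 or replicate 3 of Col-0, at 1.25 and 1.14. Its neighbour AT5G47600, on the list as HSP14.7, was in neither table.

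HSFB2A (AT5G62020) encodes a class B heat stress factor, a class that lacks the activation domain of class A factors and is known for repressors. It had 391, 516 and 587 reads in mrg1mrg2, against 246, 221 and 252 reads in Col-0. The authors' deposited table gives a log2 change of 1.05 with an adjusted p of 4.84e-06. Its 3-unit match began 146 bases before the coding start.
HSFB2A, chr5:24916066-24916078, 3-unit, plus strand: tagGAAGTTTCTTGAAgcc
The listed call of HSFB2A and that of HSP17.6B held in every refit. The class A factors examined, the class that holds the family's activators, were in neither table.

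**Figure D5:**
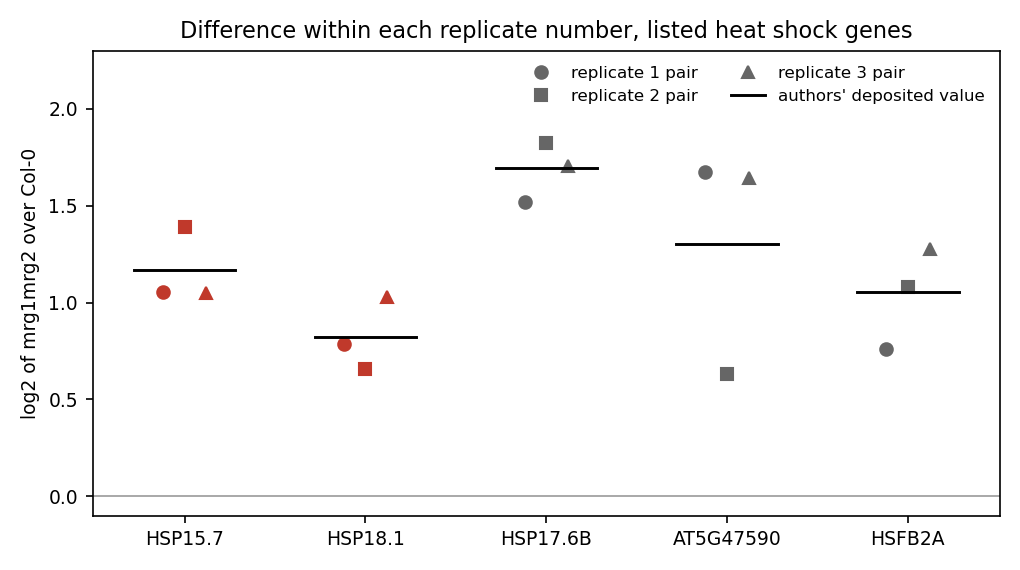
Log2 of mrg1mrg2 over Col-0 within each replicate number for the 5 listed heat shock genes; symbols are replicate pairs and horizontal lines the log2 change of the authors' deposited table. All 15 points lie above 0, HSP17.6B has the highest line at 1.69 and HSP18.1 the lowest at 0.82.

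The transcripts held no stretch close to another site. None of the 785 windows of 50 bases in the HSP15.7 transcript, of the 929 in HSP18.1 or of the 1007 in HSP17.6B aligned elsewhere in the genome with up to 2 mismatches. The same search on the defensin gene PDF1.2A, a member of a near-identical family, found other sites for 28.5% of windows. In a global alignment with gaps counted, the coding sequences of HSP18.1 and HSP17.6B were identical at 69.6% of positions and those of HSP15.7 and HSP18.1 at 54.2%. HSFB2A, which is not a small heat shock protein gene, was identical to HSP15.7 at 33.7% and to HSP18.1 at 37.4% of positions.

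Of the nearest neighbours of the pair, EXO70H7, an exocyst subunit gene (ATEXO70H7 in the authors' table), was listed. Its 3′ end lies 574 bases beyond the 3′ end of HSP18.1, on the opposite strand. EXO70H7 had 2973, 2874 and 2324 reads in mrg1mrg2, against 1924, 1583 and 1523 reads in Col-0, with a log2 change of 0.70 in the authors' deposited table. It was therefore far more abundant than HSP18.1 and higher in the mutant too; whether its reads reached the HSP18.1 count was not tested. VIP2, 240 bases upstream of HSP18.1, was in neither table. On either side of HSP15.7, PDLP7 at 7137 bases and ARLA1A at 4 bases, on the opposite strand, were in neither table. ARLA1A therefore has no level here, and whether its reads reached the HSP15.7 count was not tested.

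Peroxisomal genes were examined because HSP15.7 is described as peroxisomal. Of 22 genes of the peroxisome matrix and its import, 1 was higher (4.55%, against 2.31% of all genes inferred to have been tested) and 21 were in neither table; nothing is read from a single gene. It was MLS, the gene of malate synthase in the glyoxylate cycle, with 96, 92 and 75 reads in mrg1mrg2, against 14, 10 and 8 reads in Col-0.

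Profiles over the 6 libraries were compared with 218 listed genes that have a symbol and at least 50 normalised counts on average. The measure was the root mean square difference of log2 normalised counts, each gene centred on its own mean. It includes the genotype difference itself, and all these genes had been listed for that same contrast. HSP15.7 was closest to ZAT9, a zinc finger protein gene, at 0.07, to the transcription factor gene WRKY36 at 0.07 and to NAC003 at 0.08 log2 units, against a median of 0.32. HSP18.1 was closest to GORK, an outward potassium channel gene, at 0.06, to XYP11, a xylogen-like protein gene, at 0.07 and to B''DELTA, a phosphatase subunit gene, at 0.08, against a median of 0.24. The pair differed from each other by 0.27. HSP18.1 therefore ranked 66 among the genes nearest to HSP15.7, and HSP15.7 ranked 131 among those nearest to HSP18.1. The 3 genes nearest to HSP15.7, itself at 1.17, had deposited log2 changes of 1.07, 1.14 and 1.11. Those nearest to HSP18.1, itself at 0.82, had 0.79, 0.75 and 0.83. The ranks therefore do not show likeness or unlikeness apart from the genotype difference.

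Several facts of the series bear on these values. MRG2 had 96 to 188 reads in the mutant libraries and 380 to 437 in the Col-0 libraries, which matches the labels for that gene; MRG1 is in neither table and was not checked. Of the markers of leaf (5 genes), root (5 genes) and late seed (8 genes), none was in either table, so the tissue label was not checked here on levels. Size factors of the libraries ran from 0.955 to 1.07, so raw and normalised counts differ little.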

How the data were processed

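RNA-seq of 3 mrg1mrg2 and 3 Col-0 libraries was used. The labels' protocols name ribosomal depletion, a stranded kit and single-end reads of 50 bp. The submitters' processing notes name the TAIR10 build and DESeq2. No aligner, counting tool or strand setting is given in those sources. The authors deposited raw counts of listed genes, with a p-value, an adjusted p-value and a log2 fold change of mrg1mrg2 over Col-0, per the file headers. Depth could not be taken from these tables.

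Size factors were those that best gave the authors' log2 changes back in 435 genes averaging 50 or more counts (residual SD 0.00089 log2 units), and raw counts were divided by them. In R 4.3.3, edgeR 4.0.16 (quasi-likelihood) refitted all 552 listed genes, and DESeq2 1.42.0 was an alternative. The threshold was the largest listed p, 0.00161. All of them were listed because they differed, so a refit shows only how a call depends on libraries and model. Adjusted and raw p-values of the authors are linked by ranks that correspond to 22995 tested genes. Of these, 195 rank before the last listed gene but are not among the listed genes. They have no values here, and which genes they are is not known.

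Same-numbered libraries deviated together from their genotype means (r = 0.40, 0.55 and 0.32 across 435 genes, which are not independent). For other pairs r was -0.42 to 0.02. The deviations of a genotype's 3 libraries cancel for each gene, so the values for other pairs are no separate contrast. Because of the shared deviation, differences were also given within replicate numbers. The main refits used genotype only, with replicate number as an alternative block. The permutation test of the ratio ignored the pairing. Chi-square per degree of freedom between replicates was 11.4 to 27.8, so no library was a repeat of another.

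RefSeq TAIR10.1 matched 549 of 552 identifiers, with the strand equal for all 549, and supplied gene models and sequences. Transcript windows of 50 bases were aligned with bwa 0.7.19 allowing 2 mismatches, and coding sequences with Biopython 1.88. Besides the pair, the text names listed genes of the heat, peroxisome and marker lists, the nearest neighbours, and the 3 listed genes with the most similar profile. AT5G47590 was added after its values were seen. The genes, lists and tests were chosen with earlier results of these data known.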

Additional observations from a re-analysis of the deposited data

How the results depend on the processing

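The direction of both genes, and of the HSP15.7 to HSP18.1 ratio, was the same under every setting run. HSP18.1 missed the threshold of 0.00161 in DESeq2 (log2 change 0.82) and in DESeq2 with a replicate block (0.82, chosen after seeing the data), and without each library in turn (0.76 to 0.88; fewer samples enter those fits). HSP15.7 passed throughout (1.09 to 1.28 without each library). Equal size factors and a filter of at least 10 counts in at least 3 libraries changed neither call. With replicate number as a block edgeR gave 1.16 for HSP15.7 and 0.82 for HSP18.1 and kept both calls; the block changed the call of AT5G47590 but not of HSP17.6B or HSFB2A. Of all listed higher genes edgeR passed 375, 389 with the block, and 189 to 390 without each library: 189 without mrg1mrg2 replicate 2, 238 without Col-0 replicate 2 and 248 without Col-0 replicate 3. Of lower genes it passed 18, 19 with the block, and 14 to 19 without each library. The ratio difference was 0.34 with and without the pairing (exact p = 0.25 over pairs, the smallest 3 pairs allow), 0.34 with either pseudocount and 0.24 to 0.51 without each library. Of the listed heat shock genes AT5G47590 had the lowest counts, with as few as 13 reads in a library.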
